A study of Mus musculus with 18 samples.

Results

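The genes of the synaptic vesicle release machinery were followed across 2 connected brain structures and across the outcomes of social defeat. Members were chosen by name, not by their values, though with earlier results of these data known. A gene counted if its platform symbol was a numbered synaptotagmin (Syt), syntaxin (Stx), syntaxin-binding protein (Stxbp), VAMP, complexin (Cplx), synapsin (Syn), SV2 protein, Rab3 or RIM (Rims), or Snap23, Snap25, Snap29 or Snap91. This gave 62 of the 17274 genes named on the array, carried by 112 probes. Each gene was read from its brightest probe. Of the 62, 32 had 1 probe and 30 had several, and 53 had a mean at or above the median probe of the array, which lies at 7.39 log2 units. Stx4a, Stxbp5 and Sv2c were not analysed here.

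Tissue came from male C57BL/6J mice of 10.5 weeks; the labels name no transgene or drug treatment in any group. Some mice went through social defeat and were then classed as susceptible or unsusceptible, and the controls were not defeated. The ventral tegmental area (VTA), which holds midbrain dopamine neurons, and the nucleus accumbens (NAc), a striatal target of those neurons, were each sampled in all 3 classes. Every array carried RNA pooled from 4 animals, and each of the 6 groups had 3 pools: VTA susceptible, VTA unsusceptible, VTA control, NAc susceptible, NAc unsusceptible and NAc control. An error therefore measures the spread between pools, and each group mean is limited by its number of arrays. Median scanner intensities of the 18 arrays lay between 148.3 and 253.1, with NAc unsusceptible pool 3 the brightest. Levels below are log2 of quantile-normalized intensity. They compare 1 gene between samples, since probes of different genes bind with different strength.

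Vesicles fuse when a SNARE on the vesicle (a VAMP) zips together with SNAREs on the plasma membrane (a syntaxin and Snap25), guided by syntaxin-binding proteins. Complexins hold and prime the half-zipped complex, and synaptotagmins sense the calcium that triggers fusion. Rab3 proteins and RIMs bring vesicles to the release site, synapsins keep a reserve of vesicles together, and SV2 proteins sit in the vesicle membrane. Many of these proteins come in paralogs that neurons of different brain regions use in different mixtures.

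The dissections were first checked against cell type markers. All 4 dopamine neuron markers were higher in VTA, by a median of 4.91 log2 units, and all 4 measured medium spiny neuron markers were lower, by a median of 4.14 (log2 change -4.14). Slc17a6, the vesicular glutamate transporter of subcortical neurons, was higher in VTA by 4.53. All 3 measured cortical excitatory markers were lower in VTA, with a median of -2.42. The mean log2 level of the cortical markers ran from 7.32 to 8.39 over the VTA pools and from 8.72 to 10.43 over the NAc pools. All 4 measured oligodendrocyte markers were higher in VTA (median 0.98), as were 4 of 5 astrocyte markers (median 0.51). Of 7 measured general neuron markers, 5 were higher in VTA and 1 was lower (median 0.51). Their mean level ran from 11.74 to 12.07 over the VTA pools and from 10.96 to 11.28 over the NAc pools. All 3 GABA neuron markers (median -0.72) and all 3 measured microglia markers (median -0.28) were lower in VTA. One VTA pool stood apart. VTA unsusceptible pool 3 had a mean dopamine marker level of 10.65, against 12.99 to 13.78 in the other VTA pools and 8.07 to 8.39 in the NAc pools. In whole tissue, fewer cells of a type and less RNA per cell cannot be told apart.

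Levels of the release genes differed between the structures in both directions, and most families held members of each kind. In VTA, 23 of the 62 genes were higher and 17 were lower than in NAc (limma, adjusted p under 0.05), and 22 did not pass. The genes with the largest differences among the members were Vamp1, Rims3, Syt9 and Syt17 on the higher side, and Cplx2, Stxbp2, Syt5 and Rab3b on the lower side. A difference of at least 1 log2 unit was seen in 4 members that were higher and 6 that were lower. Of all named genes, 40.8% passed the same test, 22.8% as higher and 18.0% as lower, and 28.0% of all probes passed. The members' share was 64.5% of all 62. All 40 members that passed were among the 53 above the median probe. Of the 11597 named genes above it, 57.6% passed. The 64.5% also counts the dimmer members, so it has another base than the 57.6%. The 9 dimmer members (Syt2, Syt8, Syt10, Syt14, Stx2, Stx19, Stxbp6, Cplx3 and Cplx4) did not pass. The median change was 0.021 over members and 0.012 over named genes, so higher and lower members nearly balanced. Pools did not overlap between the structures for 19 of 62 members, 8 above and 11 below, where 19.0% of named genes did not overlap. Within the members alone, the first principal component, which separated VTA from NAc pools, held 81.6% of the variance.

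**Figure D1:**
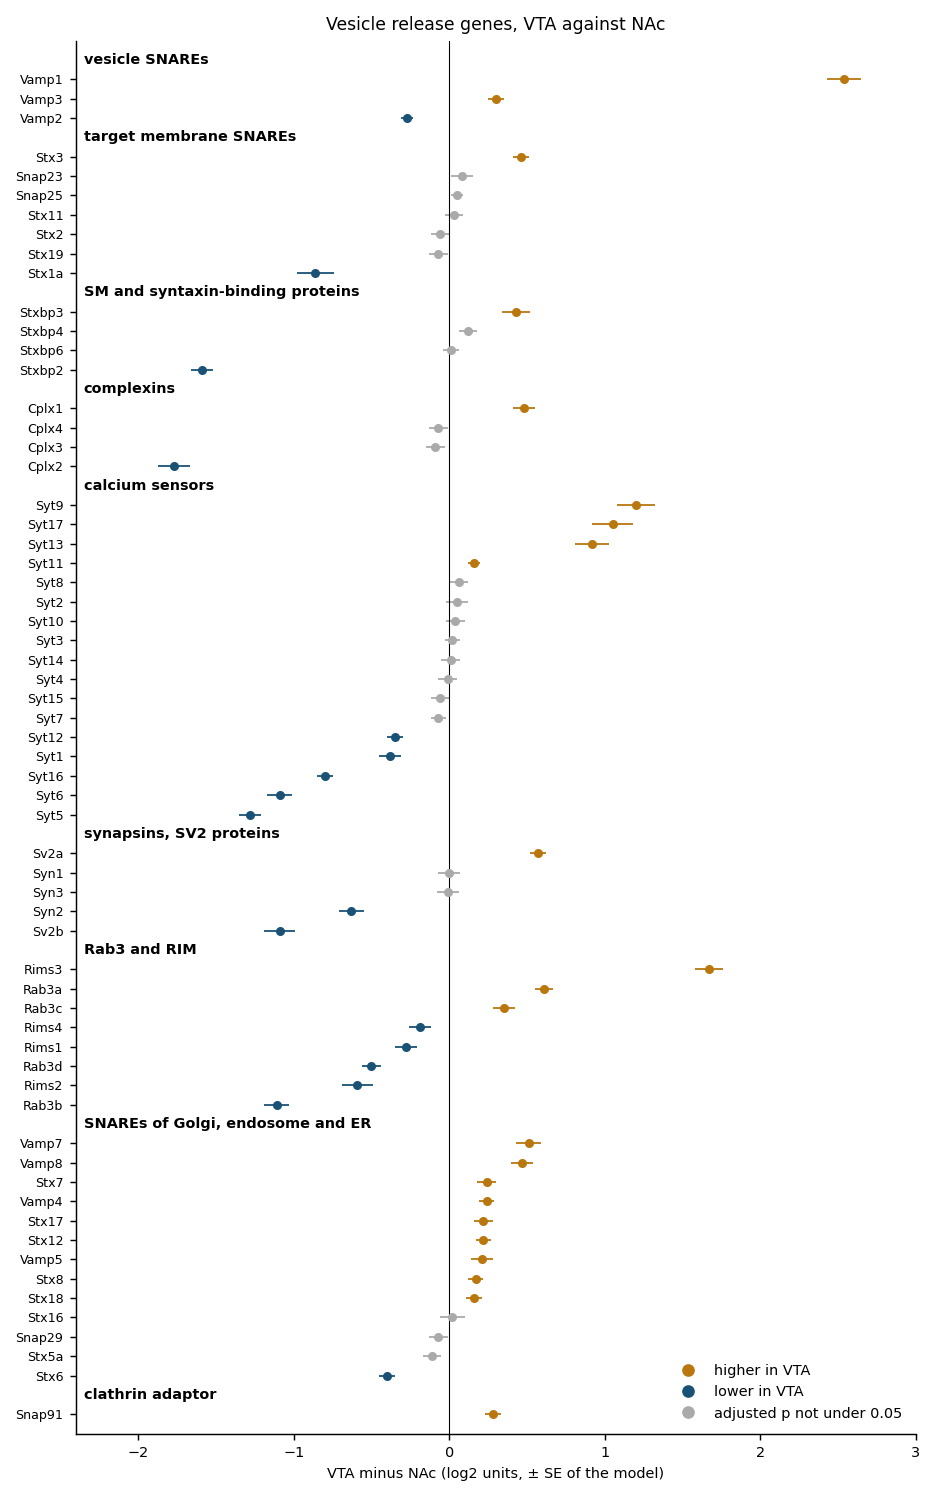
Difference between VTA and NAc (horizontal axis, log2 units, positive when higher in VTA) for the 62 genes, grouped by role, from 9 pools per structure; bars are the standard error of the model. Most families hold both higher and lower members, from Vamp1 at 2.54 to Cplx2 at -1.77, while Snap25 and Syn1 sit at 0.05 and -0.00.

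The promoters of 4 genes that stood for this pattern are shown, since they include the largest difference in each direction and the 2 main complexins, which moved in opposite directions. Sequences are from RefSeq on build GRCm38.p6, 250 bases before to 50 after the transcript start, 5′ to 3′ on the gene's strand. They lie at chr6:125215331-125215630 (Vamp1, plus strand), chr4:120854549-120854848 (Rims3, plus strand), chr5:108549978-108550277 (Cplx1, minus strand) and chr13:54302306-54302605 (Cplx2, plus strand). Capitals mark GC boxes (GGGCGG, or CCGCCC on the other strand) and CCAAT boxes (CCAAT, or ATTGG on the other strand).
Vamp1: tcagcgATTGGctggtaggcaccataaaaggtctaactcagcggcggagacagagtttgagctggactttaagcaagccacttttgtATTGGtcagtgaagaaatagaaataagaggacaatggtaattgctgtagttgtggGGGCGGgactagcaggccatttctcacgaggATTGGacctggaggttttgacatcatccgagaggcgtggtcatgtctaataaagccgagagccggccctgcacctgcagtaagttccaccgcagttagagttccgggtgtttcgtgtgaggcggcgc
Rims3: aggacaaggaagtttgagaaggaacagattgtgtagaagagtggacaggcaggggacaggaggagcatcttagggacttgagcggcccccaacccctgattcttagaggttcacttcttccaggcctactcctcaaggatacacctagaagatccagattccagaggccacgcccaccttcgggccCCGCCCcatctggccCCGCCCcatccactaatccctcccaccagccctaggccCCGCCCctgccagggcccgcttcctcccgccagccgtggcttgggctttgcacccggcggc
Cplx1: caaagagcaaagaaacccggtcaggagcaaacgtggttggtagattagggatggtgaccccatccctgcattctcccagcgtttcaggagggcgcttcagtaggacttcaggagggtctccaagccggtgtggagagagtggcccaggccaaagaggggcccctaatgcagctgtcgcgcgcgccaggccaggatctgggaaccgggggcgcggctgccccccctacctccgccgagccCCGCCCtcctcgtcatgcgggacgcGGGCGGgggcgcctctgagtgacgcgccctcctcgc
Cplx2: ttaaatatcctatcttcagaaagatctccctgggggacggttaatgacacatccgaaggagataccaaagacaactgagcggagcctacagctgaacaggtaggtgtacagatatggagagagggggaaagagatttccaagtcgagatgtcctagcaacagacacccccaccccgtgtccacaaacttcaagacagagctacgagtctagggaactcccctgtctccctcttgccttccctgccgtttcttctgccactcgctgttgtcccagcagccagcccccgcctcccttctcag
The windows held 1 GC box and 3 CCAAT boxes in Vamp1, 3 GC boxes in Rims3, 2 GC boxes in Cplx1, and neither motif in Cplx2. None of the 4 windows held the cyclic AMP element TGACGTCA, the TATA box TATAAA or the E-box CACGTG on either strand. RefSeq gave 64 promoters for 48 of the 62 members. A GC box was present in 62.5% of these and in 35.7% of all 32851 promoters in the table, and a CCAAT box in 28.1% and 37.4%. By result, a GC box was present in 81.8% of 22 promoters of genes higher in VTA, in 63.2% of 19 promoters of genes lower in VTA, and in 43.5% of 23 promoters of members that did not pass. The E-box was in 12.5% of the members' promoters and 7.2% of all, the TATA box in 7.8% and 13.6%, and the cyclic AMP element in 3.1% and 1.8%. These are counts of letters in a short window, with some genes holding several promoters.

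All 3 vesicle SNAREs differed between the structures. Vamp1, or synaptobrevin 1, had a lowest, median and highest level of 11.38, 12.08 and 12.23 in the VTA pools, against 9.12, 9.33 and 10.22 in the NAc pools. No VTA pool reached down to any NAc pool, and the lowest VTA value was that of unsusceptible pool 3. The difference was 2.54 ± 0.11 (SE), a 5.84-fold higher intensity (adjusted p = 2.35e-15), and both of its probes were called higher. Vamp2, synaptobrevin 2, the main vesicle SNARE of forebrain synapses, ran from 13.62 to 13.94 (median 13.80) in VTA, against 13.94 to 14.20 (median 14.02) in NAc. The groups met without overlap, at a difference of -0.27 ± 0.04 (adjusted p = 2.43e-05). With each array scaled to a common median in place of quantile normalization, that of Vamp2 was -0.25 and did not pass (adjusted p = 0.0872). Vamp3, or cellubrevin, which serves constitutive and recycling traffic, averaged 10.78 ± 0.15 in VTA and 10.47 ± 0.08 in NAc (SD, n = 9 each; change 0.30 ± 0.05), and under median scaling its change of 0.29 did not pass (adjusted p = 0.177).

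Of 7 SNAREs of the target membrane, 1 was higher, 1 was lower and 5 did not pass. Snap25, the neuronal partner of Stx1a, did not pass. It had 15.68, 15.75 and 15.85 (lowest, median, highest) in VTA and 15.44, 15.70 and 15.93 in NAc, an overlap throughout (change 0.05 ± 0.04, adjusted p = 0.513). Stx1a, the syntaxin of the neuronal SNARE complex, was lower in VTA. Its VTA pools ran from 10.95 to 12.31 (median 11.38), against 11.76 to 12.60 (median 12.40) in NAc. The difference was -0.86 ± 0.12 (adjusted p = 3.46e-06), and the groups overlapped only through VTA unsusceptible pool 3, the highest VTA pool at 12.31. Stx3, a plasma membrane syntaxin also used at ribbon synapses, was higher in VTA, with pools from 9.51 to 9.76 against 8.95 to 9.32 in NAc and no overlap (change 0.46 ± 0.05, adjusted p = 5.72e-08).

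Among the syntaxin-binding proteins, Stxbp2 (Munc18-2, best known from epithelial and immune cells) was lower in VTA by 1.59 log2 units. Its pools ran from 8.84 to 9.39 in VTA and from 10.33 to 10.89 in NAc (change -1.59 ± 0.07, adjusted p = 1.70e-15). Stxbp3 (Munc18-3) was higher by 0.43 ± 0.09 on its brightest probe, and its other probe gave 0.05 and did not pass. Stxbp4 (0.12) and Stxbp6 (0.01) did not pass.

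The 2 complexins with clear signal moved in opposite directions. Cplx1 ran from 14.75 to 15.61 (median 15.40) in VTA and from 14.76 to 15.16 (median 14.90) in NAc (change 0.48 ± 0.07, adjusted p = 6.64e-06). Its overlap came from VTA unsusceptible pool 3 alone, at 14.75, while the other VTA pools lay at 15.39 and above. Cplx2, the complexin abundant in forebrain excitatory neurons, ran from 9.49 to 10.51 (median 10.38) in VTA and from 11.29 to 12.49 (median 12.12) in NAc. Its groups were far apart, at -1.77 ± 0.10 or 3.41-fold lower intensity in VTA (adjusted p = 1.20e-13). Cplx3 (-0.09) and Cplx4 (-0.07), known from retina, lay below the median probe and did not pass.

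Of 17 synaptotagmins, 4 were higher in VTA, 5 were lower and 8 did not pass, with a median change of 0.01. The fast calcium sensors split. Syt1 was lower, with pools from 14.57 to 15.17 (median 14.76) in VTA and 14.80 to 15.37 (median 15.23) in NAc (change -0.38 ± 0.07, adjusted p = 5.65e-05), and all 3 of its probes were called lower. Syt9 was higher, with pools from 10.12 to 11.46 (median 10.32) in VTA and 8.82 to 9.50 (median 9.21) in NAc and no overlap (change 1.20 ± 0.12, adjusted p = 9.74e-09). Syt2, the fast sensor of the hindbrain, ran from 6.65 to 7.41 in VTA and with a median of 6.95 in NAc, near or below the median probe, and did not pass (0.05 ± 0.07). Syt7, the slow sensor, did not pass (-0.07 ± 0.05). Syt5 fell to a mean of 9.80 ± 0.18 in VTA, against 11.07 ± 0.14 in NAc (change -1.28 ± 0.07), and Syt6 to 7.37 ± 0.17, just under the median probe, against 8.46 ± 0.21 (change -1.09 ± 0.08). Older literature exchanges the names Syt5 and Syt9 in part, and the values here go with the platform's symbols.

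Synaptotagmins not known as fast sensors were found on both sides. Syt17 (change 1.05 ± 0.13) and Syt13 (0.92 ± 0.11) were higher in VTA, and Syt11 was higher by 0.16 ± 0.04 on its brightest probe, while its second probe gave 0.02 and did not pass. Syt16 (-0.80 ± 0.05) and Syt12 (-0.35 ± 0.05) were lower without overlap between pools. Syt16 ran from 11.14 to 11.53 in VTA and had a median of 12.07 and a highest level of 12.25 in NAc. Syt4, of neuropeptide vesicles, did not pass (-0.01 ± 0.06).

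The SV2 proteins split as the complexins did. Sv2a, the vesicle protein bound by the antiseizure drug levetiracetam, ran from 14.18 to 14.34 in VTA and from 13.45 to 13.84 in NAc, a gap with no overlap (change 0.57 ± 0.05, adjusted p = 2.70e-10). Sv2b ran from 12.76 to 13.60 (median 12.82) in VTA and from 13.64 to 14.58 (median 13.99) in NAc (change -1.09 ± 0.10, adjusted p = 4.14e-09). The highest VTA value of Sv2b was again that of unsusceptible pool 3. Syn1, the synapsin of most presynaptic terminals, averaged 13.31 ± 0.16 in VTA and 13.31 ± 0.19 in NAc (change -0.00 ± 0.07). Syn2 was lower in VTA, at 12.21 ± 0.18 against 12.84 ± 0.24 (change -0.63 ± 0.08, adjusted p = 6.78e-07), though its second-brightest probe gave -0.14 and did not pass (adjusted p = 0.117). The brightest probe of Syn3 did not pass (-0.01), while 2 of its dimmer probes were called higher (0.28 and 0.25).

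All 8 Rab3 and RIM genes passed in the main setting, 3 as higher and 5 as lower. Under median scaling, Rab3c (0.31, limma adjusted p = 0.0849), Rims1 (-0.31, adjusted p = 0.176) and Rims4 (-0.21, adjusted p = 0.129) did not pass. Rab3c, Rims1 and Rims4 also did not pass with control pools alone. Rims3, a short RIM that lacks the Rab3-binding part of the long forms, ran from 13.09 to 14.28 (median 13.45) in VTA and from 11.71 to 12.04 (median 11.76) in NAc. Its groups lay more than 1 log2 unit apart (change 1.67 ± 0.09, adjusted p = 1.37e-13), and the highest VTA pool was unsusceptible pool 3. The long scaffold RIMs were lower in VTA, Rims2 by -0.59 ± 0.10 and Rims1 by -0.28 ± 0.07. Rims4, the other short form, had a change of -0.19 ± 0.07, and its second probe gave 0.00. Rab3a, the main vesicle GTPase, was higher without overlap, at 12.48 to 12.81 in VTA and 11.82 to 12.35 in NAc (change 0.61 ± 0.06, adjusted p = 1.60e-09), and Rab3c was higher by 0.35 ± 0.07. Rab3b (-1.11 ± 0.08) and Rab3d (-0.50 ± 0.06), both also found in secretory gland cells, were lower without overlap.

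**Figure D2:**
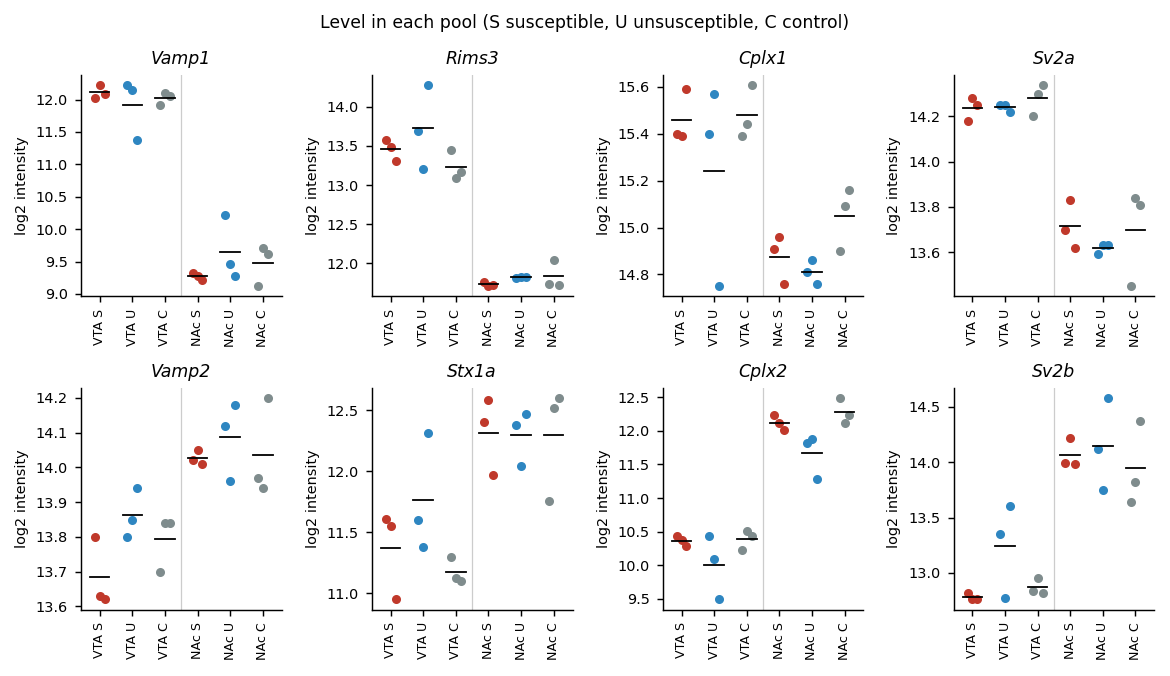
Log2 intensity of 8 genes in each of the 18 pools (points) with group means (bars); VTA groups stand left of the NAc groups, and each panel has its own vertical range. Vamp1, Rims3 and Sv2a were higher in every VTA pool and Cplx2 and Sv2b were lower, while 1 VTA unsusceptible pool (pool 3) lies away from its group in Rims3, Cplx1, Stx1a and Vamp1.

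SNAREs of the Golgi, endosome and endoplasmic reticulum, matched by the same names, moved by less. Of 13, 9 were higher in VTA, 1 was lower and 3 did not pass, with a median change of 0.21 and none beyond 0.51. Vamp7 (0.51 ± 0.08) and Vamp8 (0.47 ± 0.07), of late endosomes and lysosomes, had the largest changes of the 9. Stx7, Stx8, Stx12, Stx17, Stx18, Vamp4 and Vamp5 had changes from 0.16 to 0.24. Stx6 of the trans-Golgi was lower (-0.40 ± 0.05). For Vamp4, the second probe was called in the opposite direction (-0.31, adjusted p = 4.53e-05), and for Stx8, 1 of 6 probes was called lower (-0.16) while 3 were called higher, so these 2 genes have no settled direction. The calls of Stx12 and Stx17 rest on 1 of 2 probes. Snap91, or AP180, a clathrin adaptor of vesicle retrieval, was higher by 0.28 ± 0.05 on its brightest probe, and its other 2 probes did not pass. With median scaling in place of quantile normalization, 16 members were higher and 14 were lower in VTA, while 27.2% of named genes were called. Stx7, Stx8, Stx12, Stx18, Vamp4 and Snap91 lost their calls there, as did Vamp2, Vamp3, Rab3c, Rims1 and Rims4.

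The 40 members that passed, chosen on the mean over the 3 classes, each had 1 sign in susceptible, unsusceptible and control mice, as did 97.6% of the named genes that passed. For Vamp1 the VTA minus NAc difference was 2.83 in susceptible, 2.26 in unsusceptible and 2.54 in control mice (SE 0.20 each). For Cplx2 it was -1.76, -1.66 and -1.90 (SE 0.17 each), and for Rab3b -1.12, -1.10 and -1.12 (SE 0.14 each). For Stx1a it was -0.95, -0.53 and -1.11 (SE 0.22 each), and for Rims3 1.72, 1.90 and 1.40 (SE 0.16 each). From lowest to highest, the 3 values spanned 0.57 for Vamp1, 0.58 for Stx1a and 0.51 for Rims3. They spanned 0.24 for Cplx2 and 0.02 for Rab3b. With control pools alone, which have 3 arrays per structure, 15 members were higher and 15 were lower, while 26.6% of named genes were called. Leaving out VTA unsusceptible pool 3 gave 23 higher and 17 lower.

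Other genes of the vesicle cycle were read from lists of 75 genes, of which 71 were measured. In VTA 27 were higher and 19 lower, with a median change of 0.09, where 22.8% of named genes were higher and 18.0% lower. Of the 71, 8 lay below the median probe. Among named genes above that probe, 57.6% passed in either direction. Of 15 active zone scaffold genes, 8 were lower and 1 was higher (Apba1, 0.38 ± 0.07). Those lower included Erc2 (-1.20 ± 0.08) and Pclo (-1.10 ± 0.08), large scaffolds that hold RIMs, and Rimbp2 (-0.66 ± 0.06), which binds RIMs and calcium channels. Of 22 priming and SNARE recycling genes, 7 were higher and 4 lower. Cadps2 (1.07 ± 0.21) and Cadps (0.99 ± 0.08), priming factors of dense-core vesicles, and Rph3a (0.96 ± 0.09), a Rab3 effector, were higher, and the calcium-binding Doc2b was lower (-1.19 ± 0.08). Of 13 vesicle membrane genes, 9 were higher, with Sncg, gamma-synuclein, at 3.64 ± 0.15, and 3 were lower. Of 21 endocytosis genes, 10 were higher, among them Dnajc6, auxilin (0.56 ± 0.06), and 4 were lower. None of the 71 passed in any comparison between behaviour groups.

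Neither outcome of social defeat changed a member past the threshold in either structure. In VTA, susceptible against control mice had 0 of 62 members called by limma (lowest adjusted p = 1.00), and 1 at an unadjusted p under 0.05, where 0% of named genes were called and 3.14% had such a p. That member was the dim Syt8 (7.12 ± 0.13 in susceptible and 7.39 ± 0.14 in control pools, change -0.27 ± 0.10). The next smallest p-values belonged to Stxbp3 (-0.26), Rab3c (-0.20) and Syt11 (-0.11) among lower values, and to Syt2 (0.20), Stxbp4 (0.16), Stx11 (0.16) and Cplx3 (0.15) among higher ones. In NAc, the same comparison called 0 of 62 members (lowest adjusted p = 0.512) and 0.0637% of named genes. Stx3 alone among members had an unadjusted p under 0.05 there, where 8.37% of named genes did. Stx3 had 9.18, 9.21 and 9.32 in NAc susceptible pools, against 8.95 to 9.13 in NAc control pools, with no overlap (change 0.21 ± 0.09), but its second probe gave -0.14. Next came Syn2 (0.28), Rab3a (0.16) and Stxbp2 (0.20), and below the controls Syt11 (-0.11), Stx12 (-0.14), Syt5 (-0.17) and Syt3 (-0.12). Under median scaling the median of named genes was 0.066 here, and relative to it Syt11 was at 0.01, Stx12 at -0.01, Syt5 at -0.02 and Syt3 at -0.07. Blood markers were higher in susceptible pools of both structures. In VTA their median change was 1.17, with 0 of 4 past the threshold and 4 at an unadjusted p under 0.05, and in NAc it was 1.34, with 3 of 4 past the threshold. In VTA the serotonin neuron markers had a median of -1.36, and neither passed. The part of these markers in the values of the members was not tested.

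Over 14 core genes of release, changes in susceptible mice lay between -0.11 (Vamp2) and 0.20 (Syt2) in VTA and between -0.21 (Vamp1) and 0.28 (Syn2) in NAc, with standard errors of 0.07 to 0.22. Snap25 differed from its controls by 0.06 ± 0.07 in VTA and 0.10 ± 0.07 in NAc. Syn2 had 12.99, 13.06 and 13.02 in NAc susceptible pools, against 12.97, 12.94 and 12.31 in NAc control pools, where control pool 3 was the low one. The 95% interval of the change lay within 1 log2 unit either way for all 62 members in both structures, the farthest bound being 0.64 (Stx1a) in VTA and 0.62 (Vamp1) in NAc. It lay within 0.5 for 57 members in each structure.

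**Figure D3:**
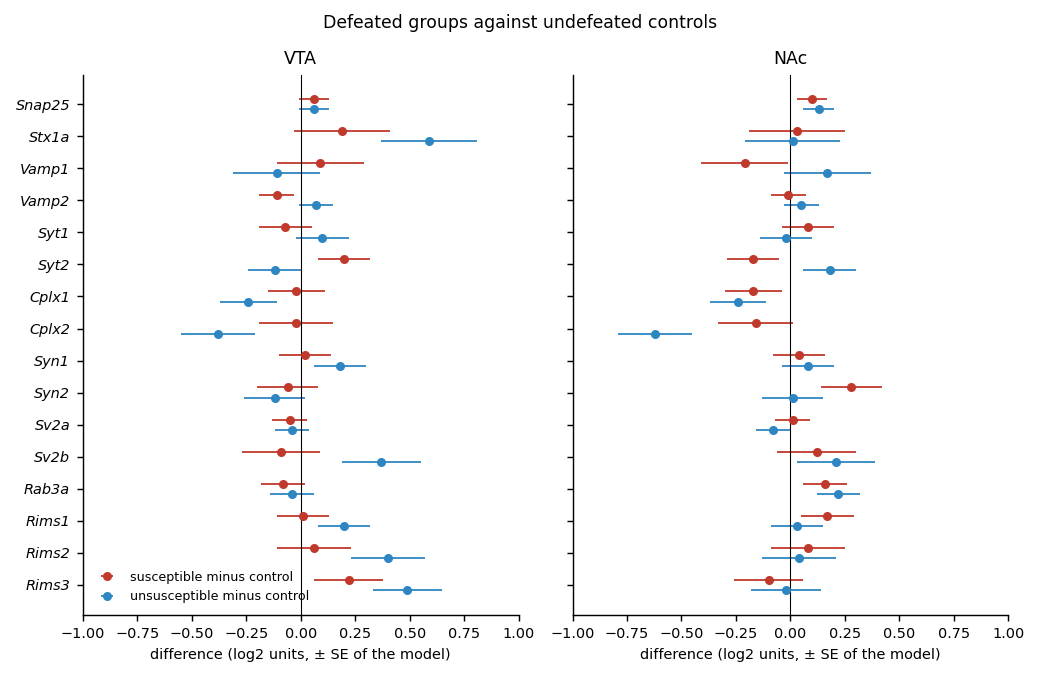
Difference of each defeated class from undefeated controls (horizontal axis, log2 units; bars are the standard error of the model) for 16 release genes in VTA (left) and NAc (right), 3 pools per group. No member passed the adjusted threshold; Cplx2 in NAc unsusceptible mice lies at -0.62 and Stx1a in VTA unsusceptible mice at 0.59.

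In NAc, unsusceptible mice had less Cplx2 signal than controls in every pool, but the difference did not pass. Cplx2 had 11.82, 11.88 and 11.29 in the unsusceptible pools, against 12.49, 12.12 and 12.24 in the control pools. The groups did not overlap, and pool 3 was the lowest (change -0.62 ± 0.17, adjusted p = 0.124). This comparison called 0 of 62 members and 0.00579% of named genes, and 5 members against 13.1% of named genes had an unadjusted p under 0.05. The other 4 were Rab3a (0.22 ± 0.10), Stx12 (-0.25 ± 0.09), Stxbp6 (-0.22 ± 0.09) and Syt15 (-0.21 ± 0.10). Snap29 (0.21), Stx16 (0.29) and Stx3 (0.17) had the next smallest p-values among higher members. Stx12 had 11.29, 11.23 and 11.19 in unsusceptible pools, against 11.33, 11.49 and 11.65 in control pools. The scaling mattered here. NAc unsusceptible pool 3 was the brightest array, and with median scaling the median of all named genes was 0.211, Cplx2 was at -0.05 (-0.26 relative to that median) and Stx12 at 0.31 (0.10 relative to it). Without NAc unsusceptible pool 3, the change of Cplx2 was -0.43, and its adjusted p ran from 0.0529 to 0.916 over the alternatives.

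In VTA unsusceptible mice, the changes of Rims3, Stx1a, Rims2, Cplx1 and Cplx2 were smaller without pool 3. Those of Vamp3, Syt8 and Stx2 moved little without it. Rims3 had 13.69, 13.20 and 14.28 in unsusceptible pools, against 13.45, 13.09 and 13.16 in control pools. Unsusceptible pool 3 was the high one and pool 2 lay among the controls (change 0.49 ± 0.16, adjusted p = 0.504). Stx1a had 11.60, 11.38 and 12.31 in unsusceptible pools, against 11.30, 11.13 and 11.10 in control pools, with no overlap (change 0.59 ± 0.22, adjusted p = 0.568). Rims2 had 9.76, 9.28 and 10.38 in unsusceptible pools, against 9.53, 9.40 and 9.27 in control pools, and the groups overlapped (change 0.40 ± 0.17). The complexins lay lower in pool 3. Cplx1 had 15.40, 15.57 and 14.75 in unsusceptible pools, against 15.39, 15.44 and 15.61 in control pools, with only pool 3 below the controls (change -0.24 ± 0.13). Cplx2 had 10.43, 10.09 and 9.49 in unsusceptible pools, against 10.22, 10.51 and 10.43 in control pools (change -0.38 ± 0.17). This comparison called 0 of 62 members and 0.0116% of named genes, and 8 members against 7.99% of named genes had an unadjusted p under 0.05. Besides Rims3, Stx1a, Rims2 and Cplx2 these were Syt9 (0.45 ± 0.21), Vamp3 (-0.25 ± 0.09) and the dim Syt8 (-0.28 ± 0.10) and Stx2 (0.22 ± 0.10).

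Without VTA unsusceptible pool 3, the change was 0.21 for Rims3, 0.31 for Stx1a, 0.12 for Rims2, 0.00 for Cplx1 and -0.12 for Cplx2. Vamp3 (-0.20), Syt8 (-0.26) and Stx2 (0.21) moved less. Without pool 2 of the same group, 2 members passed by limma: Rims3 at 0.76 (adjusted p = 0.00602) and Rims2 at 0.67 (adjusted p = 0.0377). The group then held pool 1 and pool 3 alone. The share of named genes called in that setting is not given here, so the count of members cannot be weighed against it. Cell type markers also differed here, and not in pool 3 alone. None of the 4 dopamine markers passed in this comparison, with a median change of -1.15, and pool 3 was the lowest. The serotonin neuron markers had a median of -1.69. Their mean level was 11.24, 9.97 and 7.12 in unsusceptible pools, against 10.47 to 12.31 in control pools. Of 4 oligodendrocyte markers, 2 were lower (median -0.48). Their mean level was 13.90, 13.87 and 13.52 in unsusceptible pools, each below the 14.15 to 14.29 of control pools. The part of these markers in the changes of Rims3, Stx1a and the complexins was not tested.

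**Figure D4:**
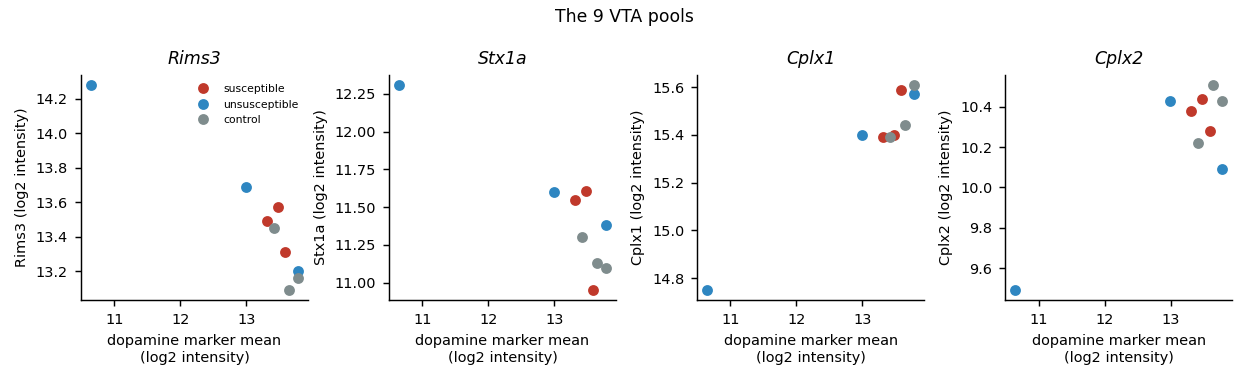
Level of 4 release genes (vertical axis, log2 intensity) against the mean level of 4 dopamine neuron markers (horizontal axis, log2 intensity) in the 9 VTA pools, coloured by behaviour class. The pool with markers at 10.65 is unsusceptible pool 3, which holds the highest Rims3 (14.28) and Stx1a (12.31) and the lowest Cplx1 (14.75) and Cplx2 (9.49).

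The 2 defeated classes were also compared with each other. In VTA, susceptible against unsusceptible mice had 0 of 62 members and 0% of named genes called (lowest adjusted p = 0.895), and 8 members against 5.71% of named genes had an unadjusted p under 0.05. Sv2b had 12.82, 12.76 and 12.76 in susceptible pools, against 13.35, 12.77 and 13.60 in unsusceptible pools. Only 2 of the 3 unsusceptible pools were high (change -0.46 ± 0.18, adjusted p = 0.895). Syt9 had 10.32, 10.20 and 10.21 in susceptible pools, against 10.66, 10.12 and 11.46 in unsusceptible pools (change -0.51 ± 0.21). Without VTA unsusceptible pool 3 the change was -0.28 for Sv2b, -0.15 for Syt9, 0.10 for Cplx2 (0.36 with it) and -0.02 for Cplx1 (0.22 with it). Vamp2 had 13.80, 13.63 and 13.62 in susceptible pools, against 13.80, 13.85 and 13.94 in unsusceptible pools, just apart (change -0.18 ± 0.08). Vamp3 (0.18) lay higher, as did the dim Syt2 (0.33 ± 0.12), and the dim Stx2 lay lower (-0.30 ± 0.10). In NAc, 0 of 62 members and 0% of named genes were called (lowest adjusted p = 0.999), and 3 members against 3.95% of named genes had an unadjusted p under 0.05. These were Cplx2, at 12.24, 12.12 and 12.01 in susceptible pools against 11.82, 11.88 and 11.29 in unsusceptible pools (change 0.46 ± 0.17), Rab3c (0.30 ± 0.12) and the dim Syt2 (-0.35 ± 0.12). Next in order were Syn2 (0.27) and Stxbp6 (0.16) on the higher side, and Vamp1 (-0.38 ± 0.20), Stxbp4 (-0.20) and Snap29 (-0.17) on the lower side. Both classes share their control pools, so the comparisons with controls are not independent of each other.

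Whether the effect of defeat differed between the structures was tested as an interaction. For the susceptible effect, VTA minus NAc, 0 of 62 members and 0% of named genes were called (lowest adjusted p = 0.677), and Syt8 (-0.39 ± 0.14) and Syt2 (0.37 ± 0.17), both dim, had an unadjusted p under 0.05, as did 6.15% of named genes. Stxbp4 (0.23), Rims3 (0.33), Stx12 (0.18), Stx16 (-0.38), Stxbp3 (-0.41) and Rab3a (-0.24) followed. For the unsusceptible effect, 0 of 62 members and 0% of named genes were called (lowest adjusted p = 0.351). An unadjusted p under 0.05 was found for 7 members and 12.5% of named genes. Among them Syt9 had the largest difference at 0.61 ± 0.29, followed by Rims3 at 0.51 ± 0.23 and Stx16, a SNARE of the trans-Golgi, at -0.50 ± 0.20. Stx12 and Stxbp6 were at 0.35 ± 0.13 each, Stxbp3 at -0.47 and Syt8 at -0.36. Rab3a (-0.25), outside the 7, came next. With median scaling, Syt9 was at -0.00 and Rims3 at -0.16, while the median of named genes was at -0.267, so relative to that median they were at 0.27 and 0.11. Of Cplx2, the effect in unsusceptible mice was -0.38 in VTA and -0.62 in NAc, and the test of the difference gave 0.24 ± 0.24 (adjusted p = 0.766).

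Among NAc pools, each of the 62 members was set against the level of cortical excitatory markers. The mean of the 3 markers ran from 8.72 (control pool 1) to 10.43 (unsusceptible pool 3). Sv2b had 13.99, 14.22 and 13.98 in susceptible pools, 14.12, 13.75 and 14.58 in unsusceptible pools, and 13.64, 13.82 and 14.37 in control pools. Over the 9 pools, Sv2b correlated with the markers at r = 0.94 (exact permutation p = 0.000207) and rho = 0.98 (exact permutation p = 4.96e-05). Adjusted over all 17274 named genes it did not pass (adjusted exact permutation p = 0.159 for r and 0.163 for rho). Its r was 0.94 without the 2 pools farthest from the marker median, and 0.94 after each class mean was removed. Syt13 had r = 0.93 (adjusted exact permutation p = 0.179) and rho = 0.93 (adjusted exact permutation p = 0.222), and its r was 0.85 without the 2 farthest pools. No member and 0% of named genes passed after adjustment. At an unadjusted exact permutation p under 0.05 there were 15 of 62 members, 12 of them positive, and 9.45% of named genes. For Snap25 (r = 0.86, rho = 0.85) and Syn1 (r = 0.85, rho = 0.85), r was 0.85 each after class means were removed. It was 0.54 and 0.59 without the 2 farthest pools. Those pools are the ends of the marker range, so a lower r without them cannot show that the values rest on them. Without the same pools, r was 0.91 for Vamp2 (r = 0.86, rho = 0.85 with them) and 0.74 for Stx1a (r = 0.84, rho = 0.78 with them). The pools share 1 normalization, and the dissection was not tested as a source.

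**Figure D5:**
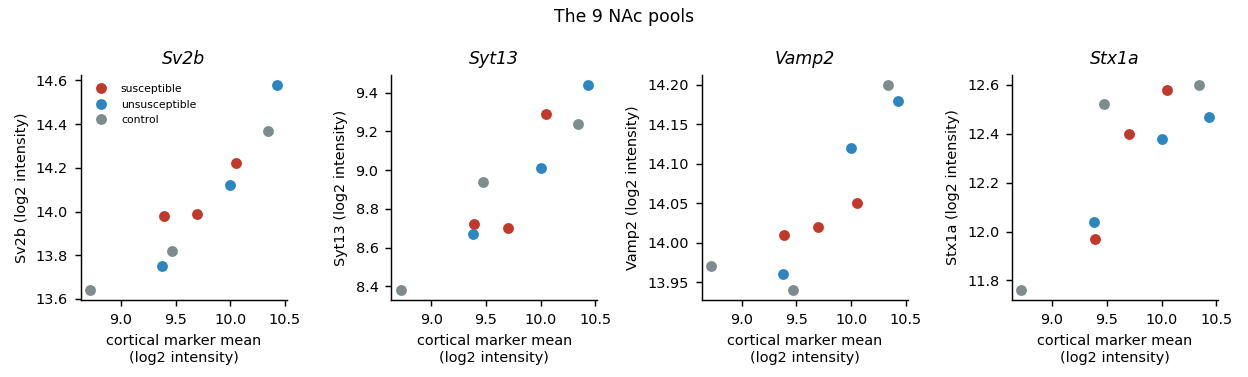
Level of 4 release genes (vertical axis, log2 intensity) against the mean level of 3 cortical excitatory neuron markers (horizontal axis, log2 intensity) in the 9 NAc pools, coloured by behaviour class. Sv2b and Syt13 have r = 0.94 and 0.93, neither past the threshold after adjustment over all named genes, and control pool 1 is lowest for markers, Sv2b, Syt13 and Stx1a.

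Vamp1 in NAc had r = 0.32 with the cortical markers. It had 9.33, 9.28 and 9.21 in susceptible pools, 10.22, 9.47 and 9.27 in unsusceptible pools, and 9.12, 9.71 and 9.62 in control pools. The pools with the highest values, unsusceptible pool 1 (10.22) and control pool 2 (9.71), were also those with the highest Slc17a6, at 11.32 and 10.94, against 8.97 to 9.99 in the other NAc pools. Slc17a6 lay at 14.23 to 14.66 in VTA pools, where Vamp1 was at 11.38 to 12.23. Among the other NAc pools the order was not kept. Susceptible pool 2 had Slc17a6 at 9.99 and Vamp1 at 9.28, and control pool 3 had 9.78 and 9.62. Nefh, a general neuron marker, was also highest in unsusceptible pool 1 (9.86) and control pool 2 (9.41). No correlation of Vamp1 with Slc17a6 or Nefh was computed, and the part of these markers in its level was not tested.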

How the data were processed

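Total RNA of each pool was amplified, labelled with biotin and hybridised to 1 one-colour array, per the labels' protocols. The deposited scanner files hold linear intensity values per probe with no background column, and the authors' table of the whole series holds quantile-normalized values of the same arrays. The submitters' processing notes name affy, with no version. Probes were named through the platform annotation.

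The scanner intensities of the 18 arrays were quantile-normalized together after a log2 transform. A model with 1 mean for each of 6 groups was fitted with limma 3.58.1 in R 4.3.3 (eBayes with an intensity trend, residual df 12, prior df 11.7), with 9 contrasts, two-sided tests and Benjamini-Hochberg adjustment over 44505 probes at a threshold of 0.05. Without background subtraction, log2 changes of dim probes are understated. The script was tested on simulated data. Correlations used two-sided exact permutation tests, adjusted over all 17274 named genes.

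Members and gene lists were chosen with earlier results of these data known. Named in the text are up to 12 members with the largest changes each way between the structures, the core release genes, in every other contrast the called members or, with none, the 4 of smallest p each way, members whose probes disagree, and up to 4 genes each way from each list of other genes.

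Alternatives were median scaling, the authors' table, an offset of 50, bright probes alone, other probe rules, array weights, no trend, 1 structure alone, control pools alone, a replicate block and each pool left out.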

Additional observations from a re-analysis of the deposited data

How the results depend on the processing

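In VTA against NAc, 23 members were higher and 17 lower in the main setting and also with the authors' table, an offset of 50, bright probes alone, array weights and no intensity trend. Pools with the same replicate number in the labels shared little deviation from their group means (correlations from -0.040 to 0.200). Such values cannot show whether these pools were paired. With a replicate block the counts were also 23 and 17. Control pools alone gave 15 higher and 15 lower, with fewer samples. Leaving out each pool in turn gave 21 to 23 higher and 16 to 17 lower, and the calls lost were among Rims4, Stx18 and Vamp5. Rims4 lost its call (-0.18 to -0.15) without NAc control 2, NAc susceptible 2, NAc unsusceptible 1 or 2, VTA control 2, VTA susceptible 2 or 3, or VTA unsusceptible 1. Stx18 lost it (0.13 to 0.15) without NAc control 3, NAc susceptible 3, NAc unsusceptible 3, VTA control 3, VTA susceptible 1, or VTA unsusceptible 1 or 2. Vamp5 lost it (0.17 to 0.20) without NAc susceptible 1, VTA susceptible 1, or VTA unsusceptible 1 or 2. In VTA unsusceptible against control, 0 to 2 members were higher over the same omissions. The 2 were Rims3 and Rims2 without unsusceptible pool 2, with no share of named genes set beside them. Cplx1 ran from -0.40 to 0.00 in VTA unsusceptible against control and from -0.02 to 0.38 in VTA susceptible against unsusceptible. With NAc control 3, NAc unsusceptible 3 and VTA unsusceptible 3 left out together, an alternative chosen after seeing the data, Cplx1 was at 0.00 and -0.02 in these comparisons.

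Signs also turned. Median scaling moved the median of all named genes, to 0.066 in NAc susceptible against control, 0.211 in NAc unsusceptible against control, -0.165 in NAc susceptible against unsusceptible, and -0.080 (susceptible) and -0.267 (unsusceptible) in the interactions. Under it, NAc susceptible against control gave Syt11 0.08, Stx12 0.06, Syt5 0.05 and Syt3 0.00, NAc unsusceptible against control gave Stx12 0.31, and NAc susceptible against unsusceptible gave Syn2 -0.08. The interactions gave Stx12 -0.03 (susceptible) and Stx12 -0.32, Rims3 -0.16 and Syt9 -0.00 (unsusceptible). Relative to those medians, the signs that still turned were those of Syt11 (0.01), Stx12 in NAc unsusceptible against control (0.10) and Stx12 in the unsusceptible interaction (-0.05). The cause was not tested for these or for the probe rules. With the second-brightest probe, VTA against NAc gave Rims4 0.00, Stx17 -0.06 and Vamp4 -0.31, and NAc susceptible against control gave Stx3 -0.14, Syn2 -0.02, Syt11 0.35 and Stx12 0.03. It also gave Stxbp4 -0.01 and Rab3c 0.04 in VTA susceptible against control, Stx2 -0.07 in VTA unsusceptible against control, Rab3c -0.06 and Stxbp4 0.12 in NAc susceptible against unsusceptible, and Stx2 0.02 in VTA susceptible against unsusceptible. The interactions gave Stx12 -0.01 and -0.18. With the mean of all probes, Vamp4 was at -0.04 in VTA against NAc, and Syn2 at -0.02 and Syt11 at 0.12 in NAc susceptible against control. Dim members have little signal over background, which limits what could be detected for them.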
